A study of Homo sapiens with 6 samples.

Results

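The 10 genes described here encode negative regulators and targets of the RAS-ERK pathway and 1 receptor that feeds it: the transcription factor genes ETV5 and ETV4, the phosphatase genes DUSP6 and DUSP4, the Sprouty genes SPRY1, SPRY2 and SPRY4, the SPRED genes SPRED1 and SPRED2, and FGFR1. Their acetylation was read from peak lists of H3K27ac, acetylation of histone H3 that marks promoters and enhancers in use, as the peaks over each gene body or within 50 kb of it (hg38). These 10 genes, of 19974 protein-coding genes on chromosomes 1 to 22 and X, were chosen from earlier results of the same lists, which had named ETV5, FGFR1 and the readthrough gene POC1B-DUSP6 among genes with more covered bases in 6T-CEM. The difference between the lines at these genes is therefore a description, and no test was made of it.

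The study profiled 6T-CEM and Jurkat, 2 human T-cell acute lymphoblastic leukaemia lines, and is described as CUT&Tag, an assay in which an antibody directs a transposase to a mark, although the extraction protocol of the labels describes sonicated nuclei. It holds 1 H3K27ac library of 6T-CEM, 2 of Jurkat (replicates 1 and 2) and 3 IgG controls, which were not used here. The series title names the BET inhibitor GNE-987 and its design text a treatment of 10 nM for 24 h, but no label says whether a library came from treated cells. No label names a genotype or a culture, so it is not known whether the Jurkat replicates were separate cultures, and the spread of 6T-CEM is unknown. On these chromosomes the lists held 35154 peaks (6T-CEM), 16159 (Jurkat replicate 1) and 32097 (Jurkat replicate 2), and they carry no read counts, so depth is unknown. Peaks lay at the start sites of 7 of 9 T-lineage marker genes in 6T-CEM, against 6 in Jurkat replicate 1 and 8 in Jurkat replicate 2. Of 5 B-lineage genes, 2 had one in each library, and PAX5, MS4A1 and EBF1 had none. Of 5 myeloid genes, 1 had one in Jurkat replicate 2 alone, of 5 non-blood genes 1 had one in 6T-CEM alone, and 4 of 4 erythroid genes had none in any library.

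Growth factor receptors such as FGFR1 pass their signal through RAS and a chain of kinases to ERK, which enters the nucleus and switches on early target genes. Among those targets are the PEA3-type ETS factors ETV5 and ETV4 and a set of brakes on the same pathway: DUSP phosphatases remove the activating phosphates from ERK, Sprouty proteins act between receptor and RAS, and SPRED proteins bring neurofibromin to the membrane, where it turns RAS off. Several of these genes are held down by the repressor CIC, which ERK signalling inactivates. In T cells the same pathway works downstream of the T-cell receptor.

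The promoter windows of 5 start sites are shown for the layouts found. SPRY1 and DUSP6 lie under peaks in 6T-CEM alone, and SPRED1 and SPRED2 under peaks in every library (6 bases of the SPRED2 window in Jurkat replicate 2). SPRY4-AS1, an antisense gene on the plus strand, lies under none. It starts just beyond the upper-coordinate end of SPRY4, which is the 5′ end of that minus-strand gene. SPRY4-AS1 is not a member, and the windows of SPRY2 and SPRY4, also without peaks, are not shown. The sequences are from RefSeq (GRCh38.p14, the same assembly as hg38), 300 bases each, 250 before and 50 after the start site, 5′ to 3′ on the strand of the gene. Capitals mark letters matched by any of the motifs searched on both strands: the CIC octamers TGAATGAA and TGAATGGA, the ETS core CCGGAA, the AP-1 site TGANTCA, the CRE site TGACGTCA, the RUNX site TGTGGT and the E-box CAGATG. The hexamer TGAATG, which both CIC octamers contain, was added after the sequences were seen.
SPRY1, second start, chr4:123398136-123398435, plus strand: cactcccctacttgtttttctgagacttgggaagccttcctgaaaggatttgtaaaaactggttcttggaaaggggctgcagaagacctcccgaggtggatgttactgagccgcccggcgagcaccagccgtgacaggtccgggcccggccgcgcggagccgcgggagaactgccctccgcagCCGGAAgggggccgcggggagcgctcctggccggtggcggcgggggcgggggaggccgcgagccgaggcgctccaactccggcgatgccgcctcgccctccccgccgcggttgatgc
DUSP6, chr12:89352452-89352751, minus strand: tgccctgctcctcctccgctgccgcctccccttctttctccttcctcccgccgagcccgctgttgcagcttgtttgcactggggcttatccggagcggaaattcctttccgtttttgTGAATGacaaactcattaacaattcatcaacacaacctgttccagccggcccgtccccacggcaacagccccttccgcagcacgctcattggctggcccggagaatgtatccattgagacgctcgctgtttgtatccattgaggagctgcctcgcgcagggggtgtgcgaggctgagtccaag
SPRED1, chr15:38252586-38252885, plus strand: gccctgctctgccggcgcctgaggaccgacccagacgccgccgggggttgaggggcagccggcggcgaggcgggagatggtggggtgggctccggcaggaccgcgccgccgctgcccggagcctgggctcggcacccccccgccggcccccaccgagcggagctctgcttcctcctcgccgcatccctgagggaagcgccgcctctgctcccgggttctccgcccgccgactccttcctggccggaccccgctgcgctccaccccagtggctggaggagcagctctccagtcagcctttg
SPRED2, first start, chr2:65432550-65432849, minus strand: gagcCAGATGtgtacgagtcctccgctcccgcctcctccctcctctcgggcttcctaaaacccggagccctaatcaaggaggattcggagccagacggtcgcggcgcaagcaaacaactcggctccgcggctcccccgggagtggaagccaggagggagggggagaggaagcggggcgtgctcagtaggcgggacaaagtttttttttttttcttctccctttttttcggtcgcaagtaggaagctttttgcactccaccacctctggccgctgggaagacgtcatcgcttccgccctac
SPRY4-AS1, chr5:142325043-142325342, plus strand: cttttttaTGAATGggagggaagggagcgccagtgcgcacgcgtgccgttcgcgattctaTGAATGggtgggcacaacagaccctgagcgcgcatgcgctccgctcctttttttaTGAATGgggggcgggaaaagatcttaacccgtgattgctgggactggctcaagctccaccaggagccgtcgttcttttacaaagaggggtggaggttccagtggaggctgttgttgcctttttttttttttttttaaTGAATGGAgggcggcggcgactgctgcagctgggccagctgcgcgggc

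The SPRY4-AS1 window, which had no peak in any library, held TGAATG at 4 places, 1 of them within the octamer TGAATGGA that begins at position 2 after the start site. The windows of the members SPRY4 and SPRY2, also without a peak in any library, held neither TGAATG nor an octamer. For SPRY4 this covers only a window inside the gene (142324198 to 142324497), below its 5′ end at 142325021. The SPRY4-AS1 window, from 142325043 on, lies just beyond that 5′ end, so its letters lie directly upstream of SPRY4 as well. The octamer TGAATGGA occurs in 1.03% and TGAATGAA in 1.66% of the 34961 promoter windows of the table, and 27 windows hold TGAATG at 4 or more places. The DUSP6 window held TGAATG once, a hexamer that 11.8% of windows hold, and neither octamer. The SPRY1 window held the ETS core CCGGAA once, as 17.3% of windows do, and that of SPRED2 the E-box CAGATG once, as 14.7% do. None of the motifs was found in the SPRED1 window, of which 76.3% is G or C against a median of 58.7% over all windows. AP-1, CRE and RUNX letters, present in 7.68%, 1.85% and 13.1% of all windows, were in none of the 5 shown. A second start window of SPRED2, not shown and without a peak in any library, held the AP-1 letters at 2 places and the RUNX letters, CAGATG and TGAATG once each. The table matched 6 of the 10 genes (SPRY1, SPRY2, SPRY4, DUSP6, SPRED1 and SPRED2) and gives no window for ETV5, ETV4, DUSP4 and FGFR1.

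Taken over all 10 genes, 6T-CEM had 75 peaks covering 61930 bp, against 15 peaks covering 17041 bp in Jurkat replicate 1 and 15 peaks covering 11520 bp in Jurkat replicate 2. A gene was called higher in 6T-CEM when its covered bases, with 500 added, were at least 2 times those of the higher Jurkat library, and lower when they were at most 1 in 2 of those of the lower one. By this rule 4 of 10 genes were higher (ETV5, SPRY1, DUSP6 and FGFR1), against 11.7% of all protein-coding genes, and 0 of 10 were lower, against 2.15%. SPRY1 and DUSP6 had peaks in 6T-CEM and in neither Jurkat library, as did 5.63% of all genes, and 0 of 10 were marked in both Jurkat libraries but not in 6T-CEM, as were 2.29%. SPRY2, SPRY4 and DUSP4 had no peak in any library, which held for 21.7% of all genes. Because the genes were chosen on this contrast, nothing is read from the distance between these counts and the shares over all genes.

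**Figure D1:**
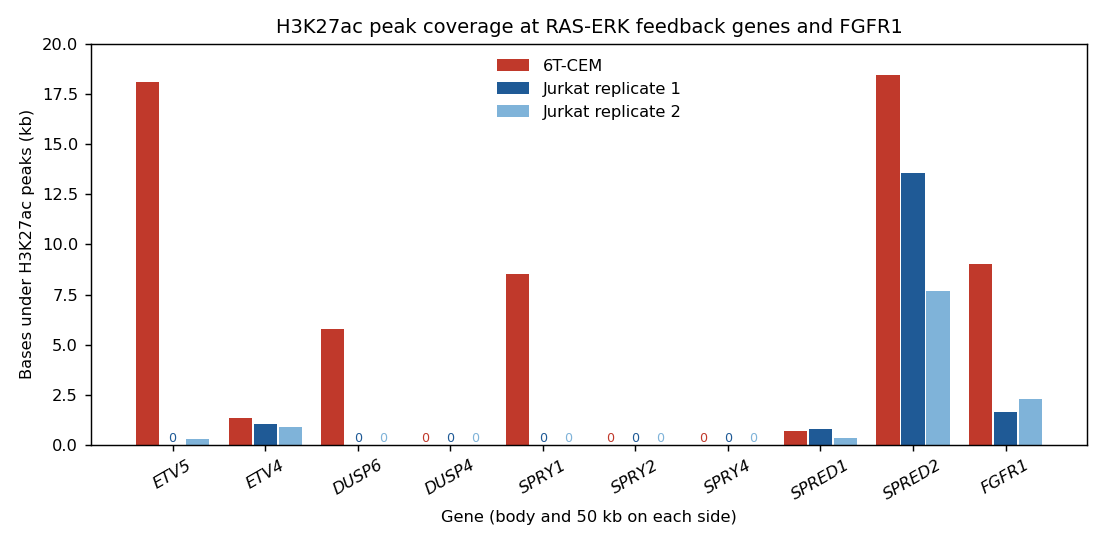
Bases under H3K27ac peaks (kb, from 0) over each gene body and 50 kb on each side, as 1 bar per library, with 6T-CEM left of the Jurkat replicates and zeros written out. ETV5, SPRY1 and DUSP6 have tall 6T-CEM bars beside Jurkat bars of 0 to 316 bp, SPRED2 has bars in every library, and DUSP4, SPRY2 and SPRY4 have none.

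ETV5, the ETS factor gene at chromosome 3, 186046314 to 186109089, had the most peaks of the set. It had 27 peaks covering 18095 bp in 6T-CEM, against 0 peaks in Jurkat replicate 1 and 1 peak of 316 bp in Jurkat replicate 2. The 6T-CEM library was high and both Jurkat libraries were at or near 0, with no overlap. On the log2 scale with 500 bp added, 6T-CEM exceeded the Jurkat mean by 4.82, while Jurkat replicate 1 differed from replicate 2 by −0.71. The difference to Jurkat depends on the bases added, since both Jurkat libraries lie below 500 bp, and was 3.22 with 2000 added. With 500 bp added, ETV5 stood at percentile 99.9 of the 15640 genes that had a peak in some library, whose median ratio was 0.35.

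Of the 27 peaks at ETV5, 20 overlapped the gene body and covered 21.3% of it. The strongest by the authors' fold enrichment lay outside the body, 19.8 to 21.7 kb below its lower end (186024617 to 186026500). It had a fold of 18.80 and a −log10 q of 43.0. Nearly as strong was the peak at 186060606 to 186061493, inside the gene, with a fold of 18.55 and a −log10 q of 52.9. Both stood at percentile 99.7 of the folds of the 6T-CEM list. The stretch from 10.6 to 27 kb above the lower end held 9 peaks, among them 1 with a fold of 13.25 and 1 with a fold of 10.25. The single Jurkat peak, with a fold of 4.08, lay inside a 6T-CEM peak of this run with a fold of 8.46.

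The ends of ETV5 were less strongly marked. A 506 bp peak with a fold of 4.15 spanned the lower-coordinate end, whereas at the upper end the nearest 6T-CEM peaks began or ended 1.1 kb away on either side, with folds of 4.89 and 4.61. The tables used here list no strand for ETV5 itself. They put its antisense gene ETV5-AS1 on the plus strand, which places the ETV5 start at the upper end. No 6T-CEM peak lay within 1 kb of that end. One 313 bp peak with a fold of 5.56 reached into the promoter window of ETV5-AS1, an antisense RNA gene inside the body, and covered 41 of its 300 bases. The same peak lay within 1 kb of an end of the lncRNA gene LOC124909470. When peaks 12.5 kb or less apart were joined, the ETV5 body fell in a 64.5 kb region of 21 peaks that ranked 301 of 13075 by width times fold in 6T-CEM, within the 585 above the tangent of the rank curve. The single peak of Jurkat replicate 2 ranked 10038 of 11190.

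ETV4, the closest relative of ETV5 in the set, had no peak over its body (chromosome 17, 43527846 to 43546340) in any library. Its window held 1353 bp in 6T-CEM, against 1058 bp in Jurkat replicate 1 and 869 bp in Jurkat replicate 2. All of these bases lay 42.6 to 44.9 kb below the gene, in peaks that overlapped the lower end of DHX8 or came within 1 kb of it. DHX8 is an RNA helicase gene whose body overlaps that of ETV4. The top folds were 3.97 in 6T-CEM, against 4.54 in Jurkat replicate 1 and 5.44 in Jurkat replicate 2. In each library the peaks lay in this same stretch, and no library marked ETV4 itself. Of the 3 peaks in 6T-CEM none remained at equal list length (16159 peaks of highest −log10 q kept in each list). ETV4 then had 0 bp in 6T-CEM, 1058 bp in Jurkat replicate 1 and 869 bp in Jurkat replicate 2. It was called lower, as were 5.86% of all genes at that length.

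**Figure D2:**
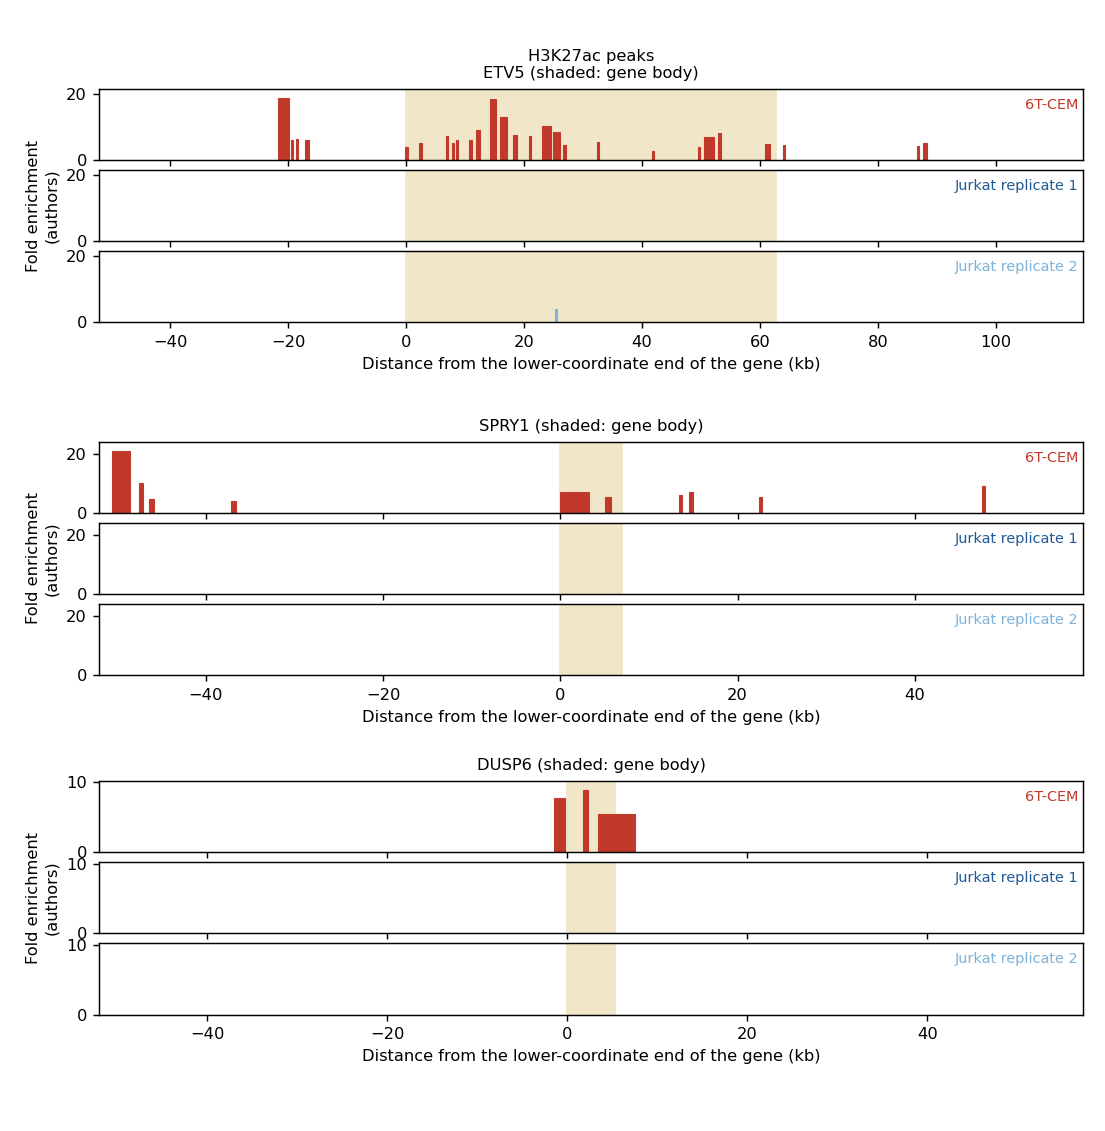
Authors' fold enrichment (vertical axis, from 0) of every peak at ETV5, SPRY1 and DUSP6 against the distance in kb from the lower-coordinate end of the gene, with the gene body shaded and 1 track per library, 6T-CEM on top. The 6T-CEM tracks hold 27, 10 and 3 peaks, the Jurkat replicate 1 tracks none, and the Jurkat replicate 2 tracks 1 small peak inside ETV5.

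Among the phosphatases, DUSP6, which acts on ERK in the cytoplasm, was marked in 6T-CEM alone. It lies at chromosome 12, 89347235 to 89352501, and had 3 peaks covering 5792 bp in 6T-CEM, against 0 bp in Jurkat replicate 1 and 0 bp in Jurkat replicate 2. The widest, of 4040 bp at 89350670 to 89354709 with a fold of 5.48, spanned the start site and the whole promoter window printed above. A second of 523 bp inside the gene had the highest fold, 8.87, and the remaining one of 1229 bp, with a fold of 7.81, lay 0.3 to 1.5 kb beyond the opposite end. Together the peaks covered 44.7% of the gene body, and no fold against Jurkat was computed because both Jurkat libraries were at 0. The 523 bp peak also lies within 1 kb of the lower end of POC1B-DUSP6, a readthrough gene that overlaps DUSP6, so the bases of these genes cannot be told apart. By covered bases, DUSP6 ranked 24 and SPRY1 ranked 12 among the 1124 genes that had peaks in 6T-CEM alone.

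DUSP4, a nuclear phosphatase of ERK and related kinases, had 0 bp within 50 kb of its body (chromosome 8, 29333064 to 29350684) in all 3 libraries. The nearest peaks were 139.8 kb away in 6T-CEM, against 69.9 kb in Jurkat replicate 1 and 139.5 kb in Jurkat replicate 2.

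The Sprouty genes differed from one another. SPRY1, at chromosome 4, 123396795 to 123403760, had 10 peaks covering 8519 bp in 6T-CEM, against 0 bp in Jurkat replicate 1 and 0 bp in Jurkat replicate 2. A 3293 bp peak at 123396737 to 123400029, with a fold of 7.19 and a −log10 q of 38.3, covered both annotated start sites and all 300 bases of the second promoter window, and 108 bases of the first. With a further 744 bp peak, 57.1% of the gene body was covered, the highest share of the set. The strongest peak of the whole set lay at the far edge of the window, 48.6 to 50.6 kb below the gene at 123346178 to 123348192, with a fold of 20.99 at percentile 99.9 of the 6T-CEM list and a −log10 q of 55.5. Beside it were peaks with folds of 10.09 and 4.64, and these 3 peaks lie within 1 kb of the ends of the lncRNA gene LOC124900774. On the other side, a 362 bp peak 40.6 kb above the gene had a fold of 9.26.

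SPRY2 and SPRY4, which encode the related inhibitors, had 0 bp in 6T-CEM, 0 bp in Jurkat replicate 1 and 0 bp in Jurkat replicate 2. SPRY2 stands in a sparse part of chromosome 13 (80335976 to 80341126), with 2 peaks within 1 Mb on either side in each library. SPRY4 (chromosome 5, 142310430 to 142325021) does not, since the same distance held 69 peaks in 6T-CEM, against 28 in Jurkat replicate 1 and 32 in Jurkat replicate 2, the nearest of them 94.2, 94.6 and 87.9 kb away in the same order. The SPRY2 promoter windows numbered 3 in the table and that of SPRY4 was 65.0% G or C, but no library had a peak over any of them.

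The SPRED genes were the members acetylated at their start sites in every library. At SPRED1 (chromosome 15, 38252836 to 38357249) a single peak per library sat on the start site, 677 bp wide in 6T-CEM, 799 bp in Jurkat replicate 1 and 366 bp in Jurkat replicate 2. Its fold was 2.93 in 6T-CEM, against 4.76 in Jurkat replicate 1 and 3.40 in Jurkat replicate 2, and the 6T-CEM width lay between those of the Jurkat libraries. No other peak lay within 50 kb of the gene, and less than 1 in 100 bases of its body was covered.

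SPRED2 (chromosome 2, 65307175 to 65432599) had 23 peaks covering 18467 bp in 6T-CEM, against 11 peaks covering 13567 bp in Jurkat replicate 1 and 9 peaks covering 7671 bp in Jurkat replicate 2. 6T-CEM was the highest, but the log2 difference to the Jurkat mean, 0.77, was no larger than that between the Jurkat libraries, 0.78. At equal list length 6T-CEM lay between them, with 9359 bp in 6T-CEM, 13567 bp in Jurkat replicate 1 and 6711 bp in Jurkat replicate 2. SPRED2 was called higher in 6T-CEM when Jurkat replicate 1 was left out, which made 5 members higher in all. With a library left out the rule for higher is at least as easily met by every gene. The share of all genes at that setting is not given here, so nothing is read from this count. The libraries shared 5 joined regions, the largest number of any member. One covered the start site at 65430329 to 65432997, with top folds of 3.0 in 6T-CEM, against 4.89 in Jurkat replicate 1 and 4.84 in Jurkat replicate 2. Deeper in the gene, the region at 65405591 to 65409087 had top folds of 13.67 in 6T-CEM, against 8.85 in Jurkat replicate 1 and 6.44 in Jurkat replicate 2. The region at 65415989 to 65418841 had 14.53 in 6T-CEM, against 5.89 in Jurkat replicate 1 and 5.22 in Jurkat replicate 2. The gene thus had shared acetylation at its start and in the body up to 65403708, but folds of separately called lists are not on 1 scale, and no direction is drawn from them.

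Beyond the shared block, the rest of the SPRED2 body carried peaks mainly in 6T-CEM. Below the block, the only joined region with a Jurkat peak was that at 65390132 to 65391185, in 6T-CEM and Jurkat replicate 1. Over the whole window, 13 joined regions were in 6T-CEM alone, 3 in Jurkat replicate 1 alone and 1 in Jurkat replicate 2 alone. The regions in a Jurkat library alone lay within the shared block or above the gene. The strongest region in 6T-CEM alone, with a fold of 10.67, lay at 65349745 to 65351631. After joining peaks within 12.5 kb, the main SPRED2 region ranked 243 of 13075 in 6T-CEM and spanned 83.1 kb. It ranked 153 of 8853 in Jurkat replicate 1, where it spanned 32.3 kb, and 889 of 11190 in Jurkat replicate 2, where it spanned 15.1 kb. It stood above the tangent of the rank curve in 6T-CEM and Jurkat replicate 1 but not in Jurkat replicate 2.

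**Figure D3:**
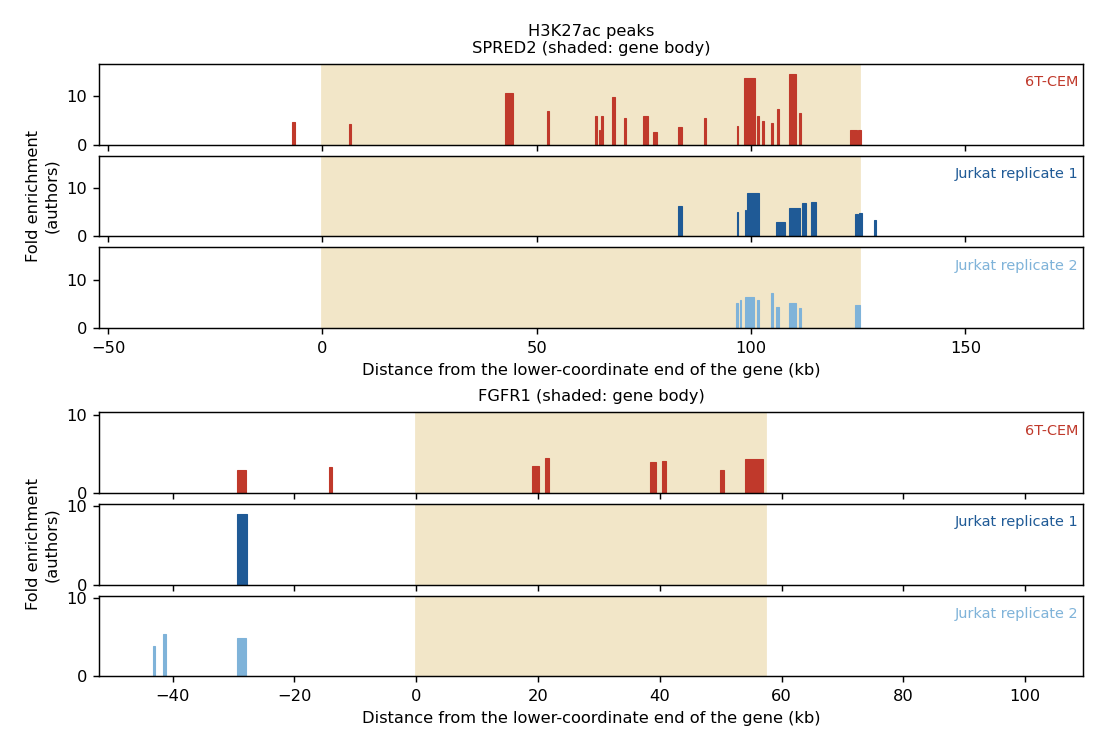
Authors' fold enrichment (vertical axis, from 0) of every peak at SPRED2 and FGFR1 against the distance in kb from the lower-coordinate end of the gene, with the gene body shaded and 1 track per library, 6T-CEM on top. At SPRED2 the libraries share a block near the upper end, and at FGFR1 the 6T-CEM track alone has peaks over the body.

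FGFR1, the receptor gene of the set (chromosome 8, 38411143 to 38468635), had 8 peaks covering 9027 bp in 6T-CEM, against 1 peak of 1617 bp in Jurkat replicate 1 and 3 peaks covering 2298 bp in Jurkat replicate 2. On the log2 scale 6T-CEM was 1.95 above the Jurkat mean, and Jurkat replicate 1 differed from replicate 2 by −0.40. Over the gene body itself there were 6 peaks covering 6997 bp in 6T-CEM, against 0 bp in Jurkat replicate 1 and 0 bp in Jurkat replicate 2. Over the body, which was taken alone only after the data were seen, 12.2% of bases were covered in the single 6T-CEM library. The share of all genes with body peaks in 6T-CEM alone is not given here. The widest of these peaks, of 2961 bp, ended 0.5 kb inside the upper end of the gene, with a fold of 4.34 and a −log10 q of 11.8.

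What the libraries shared near FGFR1 was a peak 27.8 to 29.4 kb below it, over the facing ends of NSD3, a histone methyltransferase gene, and LETM2, a mitochondrial membrane protein gene. This peak had a fold of 2.86 in 6T-CEM, against 8.97 in Jurkat replicate 1 and 4.86 in Jurkat replicate 2, and widths in the same order of 1573, 1617 and 1587 bp, so its coverage was nearly equal. The peaks over FGFR1 were weak: their folds ran up to 4.45, at percentile 45.4 of the 6T-CEM list, whereas the top peaks of ETV5, SPRY1 and SPRED2 in 6T-CEM stood at percentile 98.9 or above. At equal list length FGFR1 had 2961 bp in 6T-CEM, 1617 bp in Jurkat replicate 1 and 1986 bp in Jurkat replicate 2, and was no longer called higher.

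At start sites within 1 kb (both gene ends where the table gives none), 6 of 10 members had a peak in 6T-CEM, against 2 of 10 in Jurkat replicate 1 and 2 of 10 in Jurkat replicate 2. Over all protein-coding genes the shares were 40.9% in 6T-CEM, against 38.4% in Jurkat replicate 1 and 33.3% in Jurkat replicate 2. The Jurkat genes were SPRED1 and SPRED2. 6T-CEM added SPRY1 and DUSP6 at listed start sites, and ETV5 and FGFR1 at a gene end. A start-site peak in 6T-CEM and in neither Jurkat library was found in 6.25% of all genes. For FGFR1 the count rests on the upper end. For ETV5 it rests on the lower end, whereas the plus strand of ETV5-AS1 places the ETV5 start at the upper end. The 6 of 10 in 6T-CEM thus includes ETV5 without a peak within 1 kb of that start.

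The 10 windows held 77 joined regions, of which 59 (76.6%) were in 6T-CEM alone, 8 (10.4%) in all libraries and 0 in both Jurkat libraries alone. Over all 49528 joined regions these shares were 32.2%, 17.4% and 3.20%. ETV5 gave 26 of the 59, SPRED2 gave 13, SPRY1 gave 10, FGFR1 gave 7 and DUSP6 gave 3, so these regions are not independent of each other. The median log2 ratio of 6T-CEM to the Jurkat mean over the 10 members was 0.56, the midpoint between ETV4 and SPRED2, against 0.35 over the genes with a peak and 0.06 over all genes. It was 0.83 without Jurkat replicate 1 and 0.34 without Jurkat replicate 2. For Jurkat replicate 1 over 2 it was 0.00 over the members and −0.17 over the genes with a peak. For SPRY1 and DUSP6, at 0 in both Jurkat libraries, the log2 ratio is set in part by the 500 bases added and is not a fold change.

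**Figure D4:**
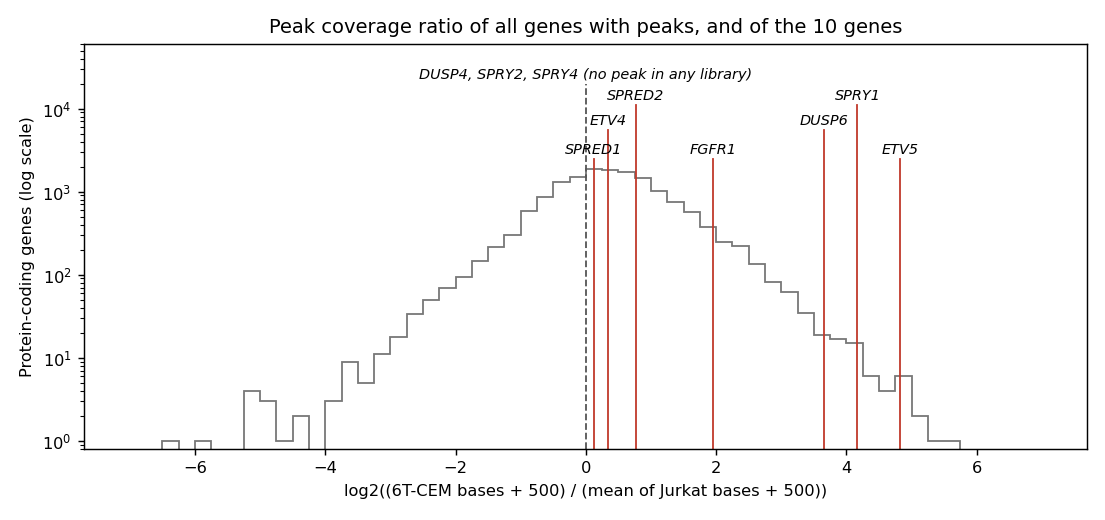
Distribution over 15640 protein-coding genes with peaks of the log2 ratio of 6T-CEM to Jurkat covered bases (500 added; horizontal axis), with the number of genes on a log scale and a vertical line for each member. ETV5, SPRY1 and DUSP6 lie at 3.65 to 4.82 in the upper tail, FGFR1 at 1.95, and SPRED2, ETV4 and SPRED1 at 0.12 to 0.77.

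The surroundings of ETV5, SPRY1 and DUSP6 differed between the lines as well. Within 1 Mb on either side of ETV5 there were 86 peaks in 6T-CEM, against 7 in Jurkat replicate 1 and 10 in Jurkat replicate 2. Around SPRY1 there were 32 in 6T-CEM, against 1 and 4 in the Jurkat replicates, and around DUSP6 there were 19 in 6T-CEM, against 1 and 0. By the ratio of 6T-CEM to the higher Jurkat library these genes stood at percentiles 99.5, 99.3 and 99.8 of all genes, for which the median numbers of peaks were 36 in 6T-CEM, against 18 in Jurkat replicate 1 and 34 in Jurkat replicate 2. The nearest Jurkat peaks of either library lay 1205.1 kb below and 800.6 kb above DUSP6, and 6T-CEM had 17 peaks in the 2.01 Mb between them. For SPRY1 they lay 94.5 kb below and 4476.7 kb above, with 25 peaks of 6T-CEM in the 4.58 Mb between them. These counts include the 27, 10 and 3 peaks of 6T-CEM in the windows of ETV5, SPRY1 and DUSP6. The genes were chosen on this contrast, so nothing is read from their percentiles. Most of the 6T-CEM peaks counted lay outside the windows, and the part of the surroundings in the contrast was not tested.

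FGFR1 and ETV4 lay in surroundings marked in both lines. FGFR1 had 47 peaks within 1 Mb in 6T-CEM, against 17 and 28 in the Jurkat replicates, and ETV4 had 80, against 79 and 93. SPRED2 had 59 in 6T-CEM, against 19 and 22. By the ratio of 6T-CEM to the higher Jurkat library within 1 Mb, FGFR1 stood at percentile 80.0 of all genes. SPRED2, not called higher, stood at 94.1, and SPRY4, without a peak in its window, at 89.8. The remaining members (ETV4, DUSP4, SPRY2 and SPRED1) stood at 19.4 to 42.0. A high ratio of the surroundings was thus not particular to the genes called higher. The 50 kb limit of the windows cut through the strongest SPRY1 peak, and the next 6T-CEM peak below SPRY1 ended 51.0 kb away, just outside. Below ETV5 the next 6T-CEM peak outside the window lay 52.4 kb away, and the farthest one inside lay 21.7 kb away.

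**Figure D5:**
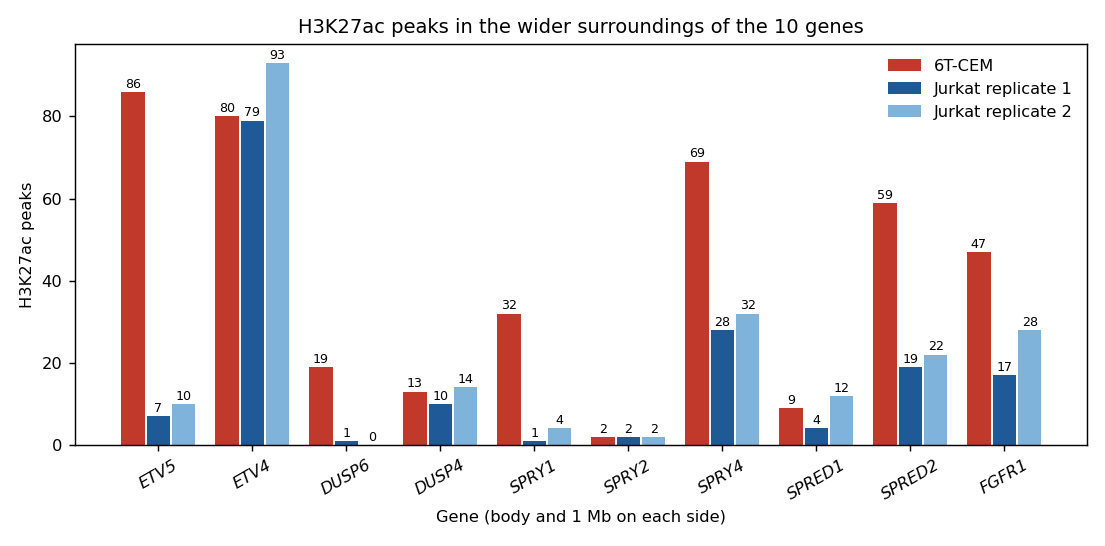
Number of H3K27ac peaks (from 0) over each gene body and 1 Mb on each side, as 1 bar per library with its count above it, 6T-CEM left of the Jurkat replicates. ETV5, SPRY1 and DUSP6 have 86, 32 and 19 peaks in 6T-CEM beside 0 to 10 in the Jurkat libraries, while ETV4 has 79 to 93 in each.

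Other genes of the pathway were read with the same windows, against shares over all genes of 11.7% higher and 2.15% lower in 6T-CEM. Nothing is called particular to a list. Among 12 genes of FGF receptors and adaptors, 2 were higher in 6T-CEM and 0 lower: SHC1, an adaptor of activated receptors, had 32102 bp in 6T-CEM, 11285 bp in Jurkat replicate 1 and 15409 bp in Jurkat replicate 2, and SOS1, an activator of RAS, had 2590 bp in 6T-CEM, 690 bp in Jurkat replicate 1 and 0 bp in Jurkat replicate 2. The list's median log2 ratio was 0.68. Among 12 genes of RAS and its regulators, 2 were higher and 0 lower, with a median of 0.03.

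Of 14 genes of the kinase cascade and its scaffolds, 1 was higher and 1 lower, with a median of 0.27. PEBP1, an inhibitor of RAF, had 2441 bp in 6T-CEM, 684 bp in Jurkat replicate 1 and 580 bp in Jurkat replicate 2, while the scaffold gene KSR2 had 603 bp in 6T-CEM, 4009 bp in Jurkat replicate 1 and 3310 bp in Jurkat replicate 2. Of 25 other ERK-responsive and feedback genes, 5 were higher and 1 lower, with a median of 0.00, against 0.06 over all genes. The called genes also included the ETS factor gene ELK3 and the receptor gene EPHA2, which were named after their values were seen. DUSP1, a phosphatase of the same family as DUSP6, had 9707 bp in 6T-CEM, 1154 bp in Jurkat replicate 1 and 1502 bp in Jurkat replicate 2. DUSP10, which acts on p38 and JNK, had 3945 bp in 6T-CEM, 0 bp in Jurkat replicate 1 and 445 bp in Jurkat replicate 2. DUSP1 and DUSP10 thus had more covered bases in 6T-CEM than in either Jurkat library. The other DUSP genes of the list were called neither higher nor lower. DUSP2 and DUSP7 in 6T-CEM lay between the Jurkat libraries, DUSP5 had 482 bp in Jurkat replicate 2 alone, and DUSP9 had no peak in any library. SPSB1, a SOCS-box protein gene, had 19517 bp in 6T-CEM, 1129 bp in Jurkat replicate 1 and 6455 bp in Jurkat replicate 2, with a log2 difference of −2.09 for Jurkat replicate 1 over 2. The adaptor gene SHC4 had 0 bp in 6T-CEM, 819 bp in Jurkat replicate 1 and 2019 bp in Jurkat replicate 2. The medians for Jurkat replicate 1 over 2 were 0.01, −0.34, −0.45 and −0.53 in the order of the lists.

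The genes closest to ETV5 in the covered bases of the 3 libraries, by Euclidean distance in log2(bases + 500), were PARD3 (distance 0.14), WRAP73 (0.30), RTP3 (0.33), TPRG1L (0.40) and LRRC3 (0.62), with 12086 to 17158 bp in 6T-CEM, 0 bp in Jurkat replicate 1 and 329 to 480 bp in Jurkat replicate 2. WRAP73 and TPRG1L share the same 329 bp in Jurkat replicate 2. Closest to FGFR1 were CLCN1 (0.09), KATNAL1 (0.11), HTRA4 (0.28), GSDMD (0.28) and CYB5D2 (0.29). With 3 libraries such likeness rests on 3 values per gene.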

How the data were processed

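H3K27ac was profiled in 6T-CEM (1 library) and Jurkat (2 libraries). The submitters' processing notes name Bowtie2 2.2.5, MACS2 2.2.7 and hg38; the sources used here do not give whether IgG served as a control. The lists the authors deposited, 1 per library, give the fold of every peak (the ratio of its signal to background, from the peak caller), a −log10 p-value, a −log10 q-value and a score (10 times the −log10 q). These are the authors' values. They describe peaks within a list, rank stitched regions, and select peaks for the alternatives on −log10 q and on list length. Folds of different lists printed side by side are not on 1 scale, and no direction is drawn from them.

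Peaks on chromosomes 1 to 22 and X were intersected with RefSeq gene bodies (GRCh38.p14) extended by 50 kb, counting an overlap of at least 1 base, and covered bases were summed without scaling to depth. Regions joined overlapping peaks of different lists. Stitched regions joined peaks of 1 list lying 12.5 kb or less apart. Start sites came from the RefSeq promoter table for genes with an entry, and otherwise both gene ends were used. No test or p-value was computed, because 6T-CEM has 1 library. The 10 genes and all lists were chosen with earlier results of these data known. Beyond the 10 genes, those named by rule are the 4 with the largest ratio among called genes of each pathway list, the 5 most like ETV5 and FGFR1, and neighbours with a peak within 1 kb of an end. Outside this rule, ELK3, EPHA2, DUSP2, DUSP5, DUSP7 and DUSP9 were named after their values were seen. SPRY4-AS1, whose window is shown, and the marker genes PAX5, MS4A1 and EBF1 also fall outside it. The called genes of the list of RAS and its regulators are not reported here by name.

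Alternatives tried were a minimum −log10 q of 5, equal list length, windows of 10 kb and 100 kb, 2000 bases added, centring, leaving out each Jurkat library, start sites within 2.5 kb, an overlap of 50%, and peaks within 1 kb counted as shared. The gene body alone was added after seeing the data. The scripts were tested on made-up peaks, where the calls of 2000 genes came out as made, and 239 genes were recounted base by base without a difference. Python 3.11.15, NumPy 2.4.6, pandas 2.3.3 and matplotlib 3.10.9 were used.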

Additional observations from a re-analysis of the deposited data

How the results depend on the processing

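The peak lists carry no read counts, so depth was not equalised other than by list length, and the 6T-CEM list is the longest. ETV5, SPRY1 and DUSP6 were called higher in 6T-CEM under every alternative run. FGFR1 was not at equal list length, where the count of 4 became 3, against 8.67% of all genes. At equal list length 1 member, ETV4, was lower in 6T-CEM, as were 5.86% of all genes. ETV4 was then also the 1 member marked in both Jurkat libraries but not in 6T-CEM. The members' median log2 ratio was 0 at equal list length, against 0.21 after centring. Within 100 kb, 1 gene had peaks in 6T-CEM and in neither Jurkat library, since Jurkat replicate 2 had 313 bp at SPRY1. No paired analysis was possible because 6T-CEM has a single H3K27ac library and no test was run.

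Among the FGF receptors and adaptors (2 higher, 0 lower), 1 was higher at a minimum −log10 q of 5, within 100 kb and after centring, 0 at equal list length and with 2000 bases added, and 4 to 5 when either Jurkat library was left out; 1 was lower at equal list length. Among RAS and its regulators (2 higher, 0 lower), 0 were higher with 2000 bases added and after centring. At equal list length 2 were lower, after centring 1, and 1 when each Jurkat library was left out in turn. In the kinase cascade (1 higher, 1 lower), 0 were higher at equal list length, within 10 kb, with 2000 bases added and after centring. With 1 Jurkat library left out, 3 to 5 were higher. Within 100 kb 0 were lower, after centring 2, and 2 when each Jurkat library was left out in turn. Of the other ERK-responsive genes (5 higher, 1 lower), 3 were higher within 10 kb and with 2000 bases added; 4 were lower at equal list length, 0 with 2000 bases added, and 1 to 2 without a Jurkat library. At equal list length, 3 members had a start-site peak in 6T-CEM and 1 in Jurkat replicate 2. Of the joined regions, 2 were in all libraries, 27 in 6T-CEM alone, 4 in both Jurkat libraries alone, 6 in Jurkat replicate 1 alone and 0 in 6T-CEM and Jurkat replicate 2 at equal list length. Regions in all libraries numbered 5 at a minimum −log10 q of 5, those in Jurkat replicate 1 alone 5 within 100 kb, and those in Jurkat replicate 2 alone 1 within 10 kb and over the gene body alone, an alternative chosen after seeing the data. Regions in 6T-CEM and Jurkat replicate 1 numbered 1 at a minimum −log10 q of 5, at equal list length, within 10 kb, at an overlap of 50%, with peaks within 1 kb counted as shared and over the gene body alone, and those in 6T-CEM and Jurkat replicate 2 numbered 1 with peaks within 1 kb counted as shared. The cause of these changes was not tested. With a Jurkat library left out, the rules for higher and lower are at least as easily met by every gene. Shares over all genes are not given for that setting, so nothing is read from those counts.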
